A study of Mus musculus with 5 samples.

Results

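Ferritin heavy chain (Fth1), ferritin light chain (Ftl1), haem oxygenase 1 (Hmox1), biliverdin reductase B (Blvrb), the transferrin receptor (Tfrc), ceruloplasmin (Cp) and the haemoglobin scavenger receptor (Cd163) were examined as the genes of iron storage, haem breakdown, iron uptake and iron oxidation. These 7 genes, of 14161 listed in any library, were matched by symbol. They had been chosen on the knockout against wild type values of these same libraries, so the differences of the 7 genes are given as a description, with no test. The cells were Bmal1-knockout (Bmal1-/-) and, for comparison, wild type, all of them cultured mesenchymal stem cells from the femur marrow of C57BL/6 mice 6 to 8 weeks old, used at passages 1 to 3 in medium with 12% serum. RNA of 3 knockout and 2 wild type libraries was sequenced. The sources used here do not say whether the libraries came from separate animals or cultures, nor which part of Bmal1 was deleted or in which cells, so p-values measure only the spread between these libraries.

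Expected counts summed to 226695, 237088 and 281990 in the knockout libraries, against 243072 and 211623 in wild type. This is shallow, and levels are given as CPM (counts per 1e6 of the scaled total of tested genes), of which 3 counts, the limit that a count of 0 allows, make 12.1 to 15.9 depending on the library (counting error only). Bmal1 (symbol Arntl) had 4, 1 and 2 counts in knockout, against 5 and 0 in wild type libraries, so its count does not check the labels at this depth. Stromal surface markers had few counts. Pdgfra had 12, 21 and 15 counts in knockout, against 25 and 12 in wild type libraries, Ly6a had 9, 17 and 24, against 20 and 15, and Thy1 had 2, 0 and 0, against 3 and 0. Type I and III collagen genes were abundant. Macrophage markers were also abundant as a sum. Of 20 listed symbols 19 had counts, the other being an older symbol of Adgre1. Cd74 had only 3, 4 and 0 counts in knockout, against 1 and 1 in wild type libraries. Cx3cr1 had 1, 1 and 2, against 3 and 0. The summed level of the markers was 11870, 10680 and 11110 CPM in knockout, against 17500 and 17080 CPM in wild type libraries. Of this, Lyz2 alone made 7091, 6532 and 6745 CPM in knockout and 10950 and 10580 CPM in wild type. With edgeR's quasi-likelihood test, 9 of the 17 tested macrophage markers were lower in knockout and none higher, while 6 of 11 tested stromal markers were higher and none lower, beside 8.19% of all 3710 tested genes higher and 8.14% lower. All marker lists were chosen with earlier results of these data known, so these counts are a description. The lower macrophage genes included Lyz2 (log2 fold change -0.67), Ctss (-0.86), Csf1r (-0.76) and Cd14 (-1.18), the last 2 losing the call without wild type 2 and on both FPKM scales. The higher stromal genes included Sparc and the collagen genes Col1a1 (1.63), Col1a2 (1.51) and Col3a1 (1.38). Osteoclast markers summed to 485, 542 and 453 CPM in knockout, against 907 and 845 CPM in wild type libraries. Of 8 such markers, 3 had no counts. Oscar had 0 counts in each knockout and 1 in each wild type library, and Atp6v0d2 had 1 and 5. Most of the sum came from the 3 markers that could be tested. Of 3 tested, Acp5 and Mmp9 were lower, calls lost without wild type 1 for Acp5 (log2 fold change -0.89) and without wild type 2 (-0.58) and on both FPKM scales for Mmp9. The tested neutrophil marker, Mmp8, and endothelial markers, Pecam1 and Emcn, did not pass, and no lymphoid marker could be tested. Of 16 erythroid markers 4 had any counts, 8 counts in all in the knockout and 5 in the wild type libraries, and the haemoglobin genes had no row in any library and were taken as 0.

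Ferritin is a hollow protein shell built of heavy and light chains that stores iron. The heavy chain oxidises ferrous iron and the light chain helps to form the mineral core. Haem oxygenase 1 opens the haem ring, releasing iron, carbon monoxide and biliverdin, and biliverdin reductases turn biliverdin into bilirubin. Macrophages that take up old red cells are known for high levels of ferritin and haem oxygenase 1. Ferritin and transferrin receptor mRNAs carry iron-responsive elements, hairpins bound by iron regulatory proteins when iron is scarce. Binding in the 5′ UTR of ferritin mRNA blocks its translation, and binding in the 3′ UTR of transferrin receptor mRNA protects it from decay. Transcription of Hmox1 and of both ferritin chains is also under NRF2, an activator, and BACH1, a haem-sensing repressor.

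The hairpins are shown because they distinguish the storage genes from the uptake receptor. GENCODE M21 transcripts (GRCm38) were searched for a C, a stem of 5 pairs and the 6-base loop CAGTGN, and windows of 30 bases are printed 5′ to 3′ as DNA with the loop in capitals. One match lay in the 5′ UTR of Fth1 (chr19:9982732-9982761, plus strand), 1 in the 5′ UTR of Ftl1 (chr7:45459778-45459807, minus strand) and 4 in the 3′ UTR of Tfrc on the plus strand (chr16:32631219-32631248, chr16:32631598-32631627, chr16:32631663-32631692 and chr16:32631710-32631739, in the order printed).
Fth1: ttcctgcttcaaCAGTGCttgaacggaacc
Ftl1: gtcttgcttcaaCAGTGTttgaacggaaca
Tfrc element 1: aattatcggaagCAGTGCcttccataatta
Tfrc element 2: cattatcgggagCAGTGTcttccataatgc
Tfrc element 3: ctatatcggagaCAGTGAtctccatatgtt
Tfrc element 4: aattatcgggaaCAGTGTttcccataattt
The Fth1 and Ftl1 windows were identical at 26 of 30 positions. The Fth1 window matched the Tfrc windows at 9 to 11 of 30 positions, of which the search itself fixed the first C and 5 loop bases. Among all genes, 31 of 21200 with a 5′ UTR (0.146%) and 144 of 21193 with a 3′ UTR (0.679%) held such a match. Outside the 7 genes, matches were looked up by name only for the other iron and haem genes. Of these, the 5′ UTRs of Slc40a1, the iron exporter ferroportin, and Alas2, the erythroid haem synthesis enzyme, each held 1. A match is a description of the letters; binding was not measured.

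**Figure D1:**
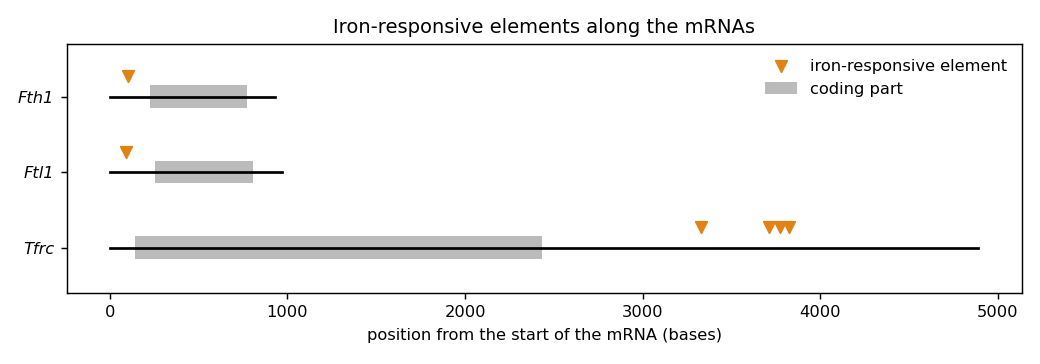
The horizontal axis gives the position from the start of the mRNA in bases, grey bars mark the coding part, and triangles mark matches to the iron-responsive element for Fth1, Ftl1 and Tfrc. Fth1 and Ftl1 have 1 match each before the coding part, and Tfrc has 4 after it.

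The levels per length were far higher for the ferritin chains than for the other 5 genes. Fth1 was the highest of the 7, at rank 5, 6 and 5 of all genes by FPKM (fragments scaled by gene length and library depth) in the knockout and rank 3 in both wild type libraries. Ftl1 ranked 8, 9 and 10 in the knockout libraries and 9 in both wild type libraries. Hmox1 followed at rank 254, 305 and 352 in knockout, against 122 and 104 in wild type libraries. By FPKM the ferritin chains were thus among the 10 highest genes in every library. Fth1 and Hmox1 lay further down that order in each knockout library than in either wild type library. By counts both chains did so too. Fth1 ranked 16, 18 and 17 by counts in knockout, against 13 and 14 in wild type libraries. Ftl1 ranked 32, 50 and 48 in knockout, against 26 and 23 in wild type. Blvrb averaged 35.3 ± 12.2 FPKM in knockout and 53.9 ± 11.6 FPKM in wild type (SD, n = 3 and 2). Cp, next to it, averaged 34.1 ± 4.12 FPKM in knockout and 38.0 ± 6.22 FPKM in wild type. The libraries of Blvrb and Cp overlapped in knockout and not in wild type. Tfrc averaged 8.01 ± 0.593 FPKM in knockout and 15.3 ± 4.12 FPKM in wild type. Cd163 was lowest, at 4.81 ± 0.682 FPKM in knockout and 11.8 ± 2.90 FPKM in wild type, and overlapped Tfrc in wild type but not in knockout.

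**Figure D2:**
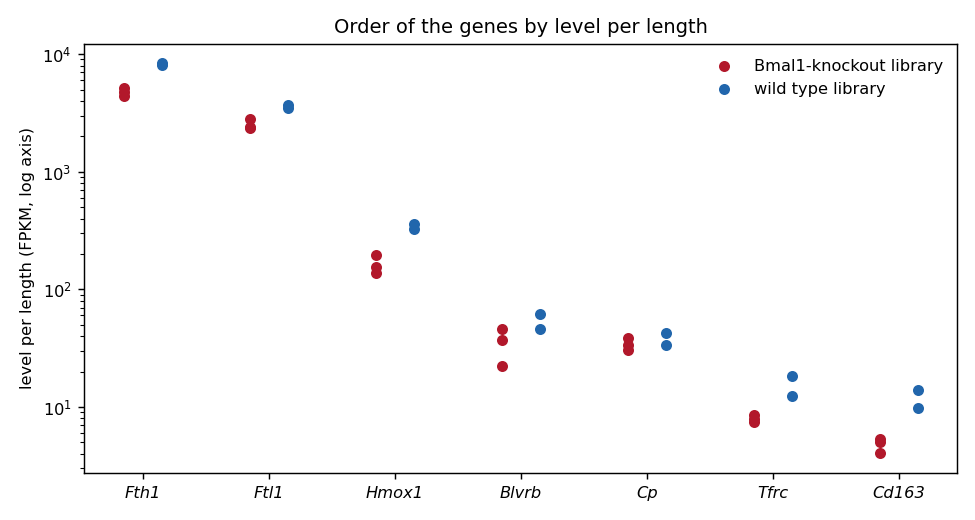
Level per length (FPKM, log axis) of the 7 genes, ordered from high to low, with 1 point for each of 3 knockout (left) and 2 wild type (right) libraries. Fth1 and Ftl1 lie above Hmox1, and the other 4 genes lie below it, in every library.

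Both ferritin chains were lower in knockout. Fth1 (Entrez gene 14319, chromosome 19, 9980600 to 9985111, GRCm38.p6) had 1204, 1087 and 1417 counts in knockout, against 2044 and 1719 in wild type libraries. This is 5784, 5167 and 5733 CPM in knockout against 9603 and 9136 CPM in wild type. Every knockout library lay below both wild type libraries, and the log2 fold change was -0.75 (SE 0.10), or 1.68-fold lower. Ftl1 (Entrez gene 14325, chromosome 7, 45457944 to 45459886) had 689, 619 and 750 counts in knockout, against 903 and 824 in wild type libraries. Its level was 3310, 2943 and 3035 CPM in knockout against 4242 and 4379 CPM in wild type. Again no knockout library reached the wild type range, and the log2 fold change was -0.48 (SE 0.10), or 1.39-fold lower. Together the chains summed to 8658 ± 502 CPM in knockout and 13680 ± 233 CPM in wild type. Since these are bulk samples, fewer cells of a type and less RNA per cell cannot be told apart. Ftl1 has 7 near-identical copies in GENCODE M21 (at least 90% identity over 200 bases), 6 of them pseudogenes and 1, Ftl1-ps1, 99.6% identical over 910 bases, and Fth1 has 1. None of these copies was listed in the tables, so reads from them, if any, could stand under Ftl1 or Fth1, and 355 exon bases of Ftl1 lie opposite exons of Gm10252. Counts of all 7 genes were whole in every library, within 0.005.

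Hmox1 had the largest fold difference of the 3 best-counted genes. Hmox1 (Entrez gene 15368, chromosome 8, 75093618 to 75100593) had 86, 72 and 76 counts in knockout, against 149 and 143 in wild type libraries. Its level was 413, 342 and 308 CPM in knockout against 700.0 and 760.0 CPM in wild type. The groups did not overlap, and the log2 fold change was -1.05 (SE 0.16), or 2.07-fold lower. Blvrb (Entrez gene 233016, chromosome 7, 27447978 to 27465981), which reduces biliverdin and flavins, had 7, 5 and 11 counts in knockout, against 10 and 12 in wild type libraries, too few for the fit. The ratio of its summed counts per total was 0.630 (95% exact Poisson interval 0.336 to 1.19, counting error only). Its knockout libraries lay below both wild type libraries in CPM (33.6, 23.8 and 44.5 in knockout against 47.0 and 63.8 in wild type) but overlapped them in FPKM, for which the deposited length of Blvrb varied between libraries. At this depth the counts of Blvrb are too few to say whether it differed.

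The uptake receptors rest on few counts. Tfrc (Entrez gene 22042, chromosome 16, 32608896 to 32632794), which takes up iron-loaded transferrin, had 12, 11 and 14 counts in knockout, against 18 and 23 in wild type libraries. Its level was 57.7, 52.3 and 56.6 CPM in knockout against 84.6 and 122 CPM in wild type, with no overlap. The log2 fold change was -0.88 (SE 0.38), and it was -1.15 without wild type 1 and -0.61 without wild type 2. Cd163 (Entrez gene 93671, chromosome 6, 124304636 to 124330529), a macrophage receptor for haemoglobin, had 5, 7 and 8 counts in knockout, against 18 and 11 in wild type libraries. Its level was 24.0, 33.3 and 32.4 CPM in knockout against 84.6 and 58.5 CPM in wild type, again with no overlap. The log2 fold change was -1.25 (SE 0.48), and the ratio of summed counts per total was 0.416, a description with no test. Both receptors were thus lower in every knockout library.

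Cp was the exception. Cp (Entrez gene 12870, chromosome 3, 19956933 to 20009750) encodes a copper oxidase that oxidises exported iron for loading onto transferrin. It had 48, 46 and 47 counts in knockout, against 57 and 39 in wild type libraries. Its level was 231, 219 and 190.2 CPM in knockout against 268 and 207 CPM in wild type, so the knockout libraries lay on both sides of wild type 2. The log2 fold change was -0.17 (SE 0.24), and it was 0.02 without wild type 1. Of its exons, 108 bases lie opposite exons of Hps3.

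**Figure D3:**
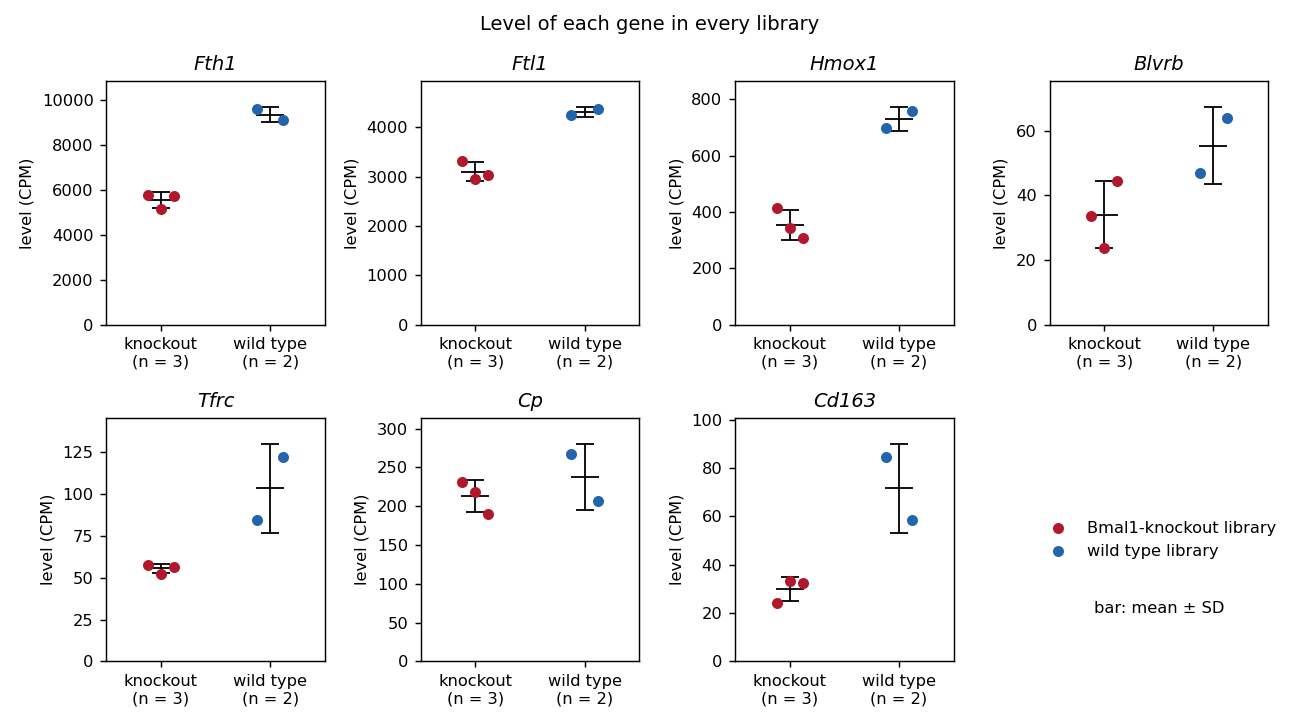
Level (CPM) of each of the 7 genes in 3 knockout (left) and 2 wild type (right) libraries, with points for libraries and bars for mean ± SD. The groups overlap for Cp and for none of the other 6 genes.

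Of the 6 genes that could be fitted, 5 had every knockout library below both wild type libraries in CPM, and 21.6% of all 3710 tested genes did so. The median log2 fold change of the 6 was -0.82, beside 0.01 for all tested genes. The genes were picked on this contrast, so nothing is read from that count or that median.

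Within each library the ferritin chains were set against each other and against Hmox1, which removes differences in library size. The FPKM ratio of Fth1 to Ftl1 was 1.84, 1.85 and 1.99 in knockout, against 2.39 and 2.20 in wild type libraries. The mRNA for the heavy chain thus outnumbered that for the light chain less in every knockout library, by -0.28 on the log2 scale. The ratio of Ftl1 to Hmox1 was 14.1, 15.1 and 17.4 in knockout, against 10.7 and 10.2 in wild type libraries. The ratio of Fth1 to Hmox1 was 25.9, 28.0 and 34.6 in knockout, against 25.5 and 22.3 in wild type libraries. Hmox1 was therefore low relative to both chains in knockout, by 0.57 log2 units against Ftl1 and 0.30 against Fth1, though for Fth1 the nearest libraries of the groups, knockout 1 and wild type 1, almost met. Against the uptake receptor no such order was seen. The ratio of Fth1 to Tfrc was 592, 586 and 600 in knockout, against 673 and 443 in wild type libraries, and that of Hmox1 to Tfrc was 22.9, 20.9 and 17.3 in knockout and 26.4 and 19.8 in wild type. Both of these overlapped, and the wild type libraries, with 18 and 23 Tfrc counts, lay far apart. The ratio of Fth1 to Cp was 133, 130.2 and 157 in knockout, against 196 and 240 in wild type libraries, without overlap.

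The same genes were set against the summed macrophage markers, which moved with them. Fth1 per unit of that sum was 0.487, 0.484 and 0.516 in knockout, against 0.549 and 0.535 in wild type libraries, a log2 difference of -0.13. Hmox1 per unit was 0.0348, 0.0321 and 0.0277 in knockout, against 0.0400 and 0.0445 in wild type libraries, a log2 difference of -0.43. Both stayed lower in every knockout library, by less than their differences in CPM. Ftl1 per unit was 0.279, 0.276 and 0.273 in knockout, against 0.242 and 0.256 in wild type libraries, so it was higher in knockout by 0.15. Cd163 per unit differed by -0.62, with no overlap, and Tfrc per unit by -0.25, with overlap. The sum is dominated by Lyz2, the lysozyme of macrophages, and ratios to Lyz2 alone had the same directions. The part of macrophage or osteoclast content in the levels of the 7 genes was not tested.

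**Figure D4:**
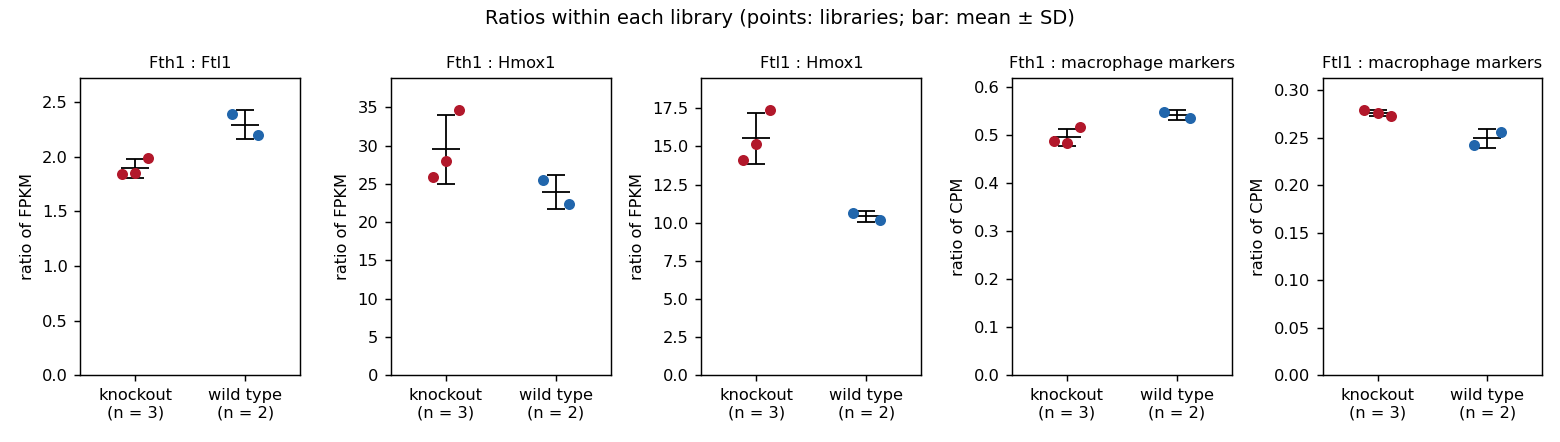
Ratios within each library of Fth1 to Ftl1, Fth1 to Hmox1 and Ftl1 to Hmox1 (FPKM), and of Fth1 and Ftl1 to summed macrophage markers (CPM), for 3 knockout (left) and 2 wild type (right) libraries, with bars for mean ± SD. The groups do not overlap in any of the 5 panels, and per macrophage marker Fth1 is lower and Ftl1 higher in knockout. Ratios of Fth1 and Hmox1 to Tfrc, of Hmox1 to Hmox2 (the constitutive haem oxygenase) and of Tfrc to macrophage markers overlapped and are not drawn.

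Genes with the library profile most like each well-counted gene were taken by the root mean square distance of log2 CPM deviations over the 5 libraries, among 2935 genes of at least 50 CPM. For Fth1 these were Lyz2 (distance 0.0546), the transcript 3110062M04Rik (0.0621) and Cfp, the complement protein properdin (0.0668). For Ftl1 they were Ctsd, a lysosomal protease (0.0084), Peli1, a ubiquitin ligase (0.0426), and Lilrb4a, an inhibitory receptor of myeloid cells (0.0464), whose exons lie opposite Gm40645 over 131 bases. Ctsd had 2373, 2073 and 2149 CPM in knockout, against 3021 and 3115 CPM in wild type libraries, a log2 fold change of -0.48. The distance takes in the difference between the groups, so a neighbour's fold change is near that of its gene by selection. For Hmox1 they were Npepps, a cytosolic aminopeptidase (0.0734), Arfgef1, an exchange factor for ARF GTPases (0.0805), and Vsir, an immune checkpoint receptor (0.0826). Npepps had 48.0, 33.3 and 32.4 CPM in knockout, against 75.2 and 85.0 CPM in wild type libraries. Arfgef1 had 43.2, 28.5 and 28.3 CPM in knockout, against 79.9 and 79.7 CPM in wild type. As 1 count makes 4.0 to 5.3 CPM, these 2 profiles rest on few counts, and their closeness to Hmox1 is uncertain. Vsir had 106, 80.8 and 85.0 CPM in knockout, against 197 and 218 CPM in wild type libraries. The 3 genes had no neighbour in common among their nearest 3, but they also differed in fold change, so nothing is read from that.

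The wider pathway was read from the same fit. Of 62 other iron and haem symbols, 54 were listed and 14 had enough counts for edgeR's test. Of the 14, 1 was higher and 2 lower in knockout at an adjusted p under 0.05, beside 8.19% of all tested genes higher and 8.14% lower, and 11 did not pass; shares this close to the background, over 14 genes, are not a result about the pathway. Their median log2 fold change was 0.05, beside 0.01 for all tested genes. The remaining 40 listed genes could not be tested, 34 of them with under 10 counts in every library.

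Among carriers of iron and haemoglobin the passing genes went in opposite directions. Hp, haptoglobin, which binds free haemoglobin, had 86, 73 and 93 counts in knockout, against 46 and 31 in wild type libraries. It rose 1.97-fold in knockout (log2 fold change 0.98, SE 0.22, edgeR adjusted p = 0.000125), with every knockout library above both wild type libraries in counts. The call was lost without wild type 2 (0.80, edgeR adjusted p = 0.0579). Trf, transferrin, the iron carrier that TFRC binds, had 19, 11 and 21 counts in knockout, against 38 and 34 in wild type libraries. It fell in knockout, by 1.22 on the log2 scale (SE 0.31, edgeR adjusted p = 0.00132), and kept the call in every alternative tried. Cd163 thus had lower levels in the libraries where Hp was higher, while Tfrc and its ligand Trf both had lower levels there. The other 4 tested uptake genes did not pass.

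In the lists of storage, haem breakdown, haem synthesis and mitochondrial iron, 1 of 8 tested genes outside the 7 passed, Slc25a37, beside the same 8.19% and 8.14% of all tested genes. Ncoa4, which delivers ferritin to lysosomes for iron release, had 27, 31 and 31 counts in knockout, against 31 and 38 in wild type libraries, a log2 fold change of -0.37 (SE 0.28) that did not pass. Pcbp2, an iron chaperone for ferritin, had 43, 65 and 115 counts in knockout, against 48 and 58 in wild type libraries and did not pass either, with knockout 3 the highest. It passed without knockout 1 (log2 fold change 0.57, edgeR adjusted p = 0.0332) and turned direction without knockout 3 (-0.04), and 1702 of its exon bases lie opposite other genes. The other haem breakdown genes, Hmox2, the constitutive haem oxygenase, and Blvra, the main biliverdin reductase, had log2 fold changes of -0.35 (SE 0.35) and 0.18 (SE 0.36) and did not pass; Hmox2 has 892 exon bases opposite Cdip1. Alas1, the first enzyme of haem synthesis, was the only tested gene of that list. It had 273, 271 and 363 counts in knockout, against 230 in each wild type library, a log2 fold change of 0.24 (SE 0.12, edgeR adjusted p = 0.185) that did not pass; 465 of its exon bases lie opposite 4930500F10Rik. Slc25a37, mitoferrin 1, which carries iron into mitochondria, had 19, 16 and 11 counts in knockout, against 35 and 18 in wild type libraries. It fell by 0.91 (SE 0.34, edgeR adjusted p = 0.0487), a call lost in 9 of 15 alternatives, among them DESeq2 (adjusted p = 0.256) and the fits without knockout 2, knockout 3 or wild type 1 (log2 fold changes -0.97, -0.65 and -0.48), and 381 of its exon bases lie opposite other genes. No tested gene represented iron sensing or iron export apart from Cp. Slc40a1 had 6, 6 and 5 counts in knockout, against 3 and 2 in wild type libraries.

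**Figure D5:**
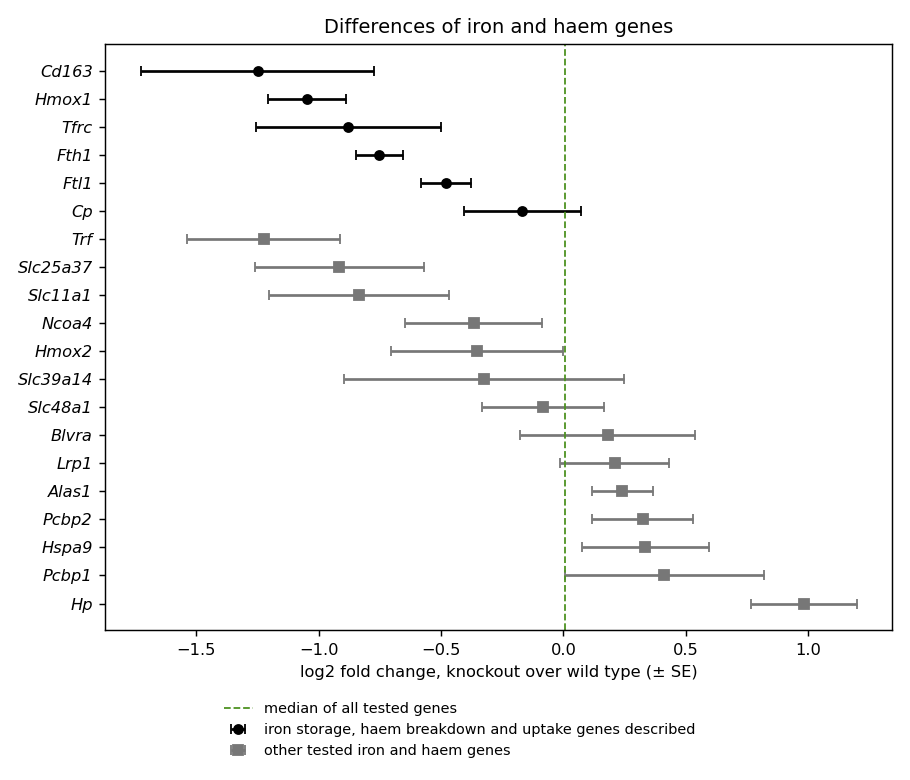
Log2 fold change, knockout over wild type, with SE, for the 6 fitted genes described (circles) and the 14 other tested iron and haem genes (squares); the dashed line is the median of all tested genes. The circles run from -1.25 for Cd163 to -0.17 for Cp, and the squares from -1.22 for Trf to 0.98 for Hp, around the dashed line.

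The list for NRF2 and BACH1, the factors known to act on Hmox1 and ferritin, held 18 genes. These were both factors, other regulators (Keap1, Mafg, Mafk and Maff) and NRF2 target genes. Like all lists here, this list was chosen with earlier results of these data known. Of its genes, regulators included, 11 were tested. Of the 11, 1 was higher, 1 lower and 9 did not pass, beside 8.19% of all tested genes higher and 8.14% lower. The median log2 fold change of the 11 was -0.40, beside 0.01 for all tested genes. Nfe2l2, the gene of NRF2, had 13, 8 and 19 counts in knockout, against 23 and 22 in wild type libraries. Its log2 fold change of -0.90 (SE 0.37, edgeR adjusted p = 0.0739) did not pass. Bach1 had 8, 9 and 6 counts in knockout, against 6 and 6 in wild type libraries, too few to test. Slc7a11, the cystine importer that serves glutathione synthesis, had 262, 277 and 357 counts in knockout, against 137 and 120 in wild type libraries. It rose 2.09-fold (log2 fold change 1.07, SE 0.14, edgeR adjusted p = 5.13e-13) and kept the call in each alternative tried, opposite in direction to Hmox1. Taldo1, transaldolase of the pentose phosphate pathway, had 11, 15 and 13 counts in knockout, against 30 and 20 in wild type libraries. It fell by 1.08 (SE 0.36, edgeR adjusted p = 0.0232), a call lost in 6 of 15 alternatives, among them the fits without knockout 1, knockout 3 or wild type 1 (edgeR adjusted p = 0.0686, 0.0850 and 0.323). Of 5 tested genes other than Tfrc on the list for ferroptosis, the iron-dependent form of cell death, Slc7a11 was the 1 that passed, beside 8.19% of all tested genes higher. Promoter sequences (RefSeq, GRCm38.p6) were matched for 6 of the 7 genes, all but Hmox1. For those 6 genes the 250 bases upstream of each start held neither the E-box CACGTG, a motif that BMAL1 binds, nor the antioxidant response element TGACNNNGC on either strand. These letters occur in 6.02% and 10.2% of 32851 promoters, and their absence from these windows says nothing of binding elsewhere.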

How the data were processed

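RNA of 3 Bmal1-knockout and 2 wild type libraries was sequenced. Each library's table, as the authors deposited it, gives expected counts, FPKM values and gene lengths, per the file headers. Per the submitters' processing notes, the tools were HISAT2, StringTie, Bowtie2 and RSEM, and the genome mm10; versions and the strand setting are not given in the sources used. The authors' FPKM values divide by gene length and depth and were used for levels between genes. The expected counts deposited were rounded to whole numbers, and a gene with no row was taken as 0. edgeR 4.0.16 in R 4.3.3 fitted quasi-likelihood models with genotype alone (filterByExpr, minimum count 10 and total 15; TMM; robust), with Benjamini-Hochberg adjustment over 3710 tested genes at 0.05. CPM use the TMM-scaled totals of tested genes, and SE is the size of the log2 fold change divided by the root of F. The fit was tested on simulated data. The 7 genes and all lists were chosen with earlier results of these data known. Beyond the 7, the text names genes of each list past the threshold (up to 4 a direction, otherwise the 2 highest by mean CPM). It also names the 3 nearest to Fth1, Ftl1 and Hmox1, and Arntl. Pdgfra, Ly6a, Thy1, Cd74, Cx3cr1, Oscar, Atp6v0d2, Slc40a1, Nfe2l2, Bach1, Keap1, Mafg, Mafk and Maff were named after their values were seen. The alternatives were another scaling, filter, test (DESeq2 1.42.0, voom), FPKM scale or rounding, a replicate block, and each library left out. DESeq2 and limma 3.58.1 were used in some of the 15 alternatives. Copies were found with blastn 2.17.0. Replicates of a group differed by more than sampling noise (chi-square per degree of freedom 1.38 to 1.63), so each counted as 1 sample.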

Additional observations from a re-analysis of the deposited data

How the results depend on the processing

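The log2 fold changes of Fth1 (-0.79 to -0.69), Ftl1 (-0.52 to -0.44) and Hmox1 (-1.16 to -0.95), and their pairwise differences, kept their direction in all 15 alternatives. For these genes and their ratios no knockout library reached the wild type range, so leaving 1 library out could hardly turn a direction. The other alternatives used the same libraries, so this is a description and no independent check. Tfrc was -1.15 without wild type 1 and -0.61 without wild type 2. With 1 library left out, directions turned for Cp (-0.339 to 0.0165), Blvra (-0.11 to 0.565), Hmox2 (-0.915 to 0.425), Pcbp2 (-0.0417 to 0.573) and Emcn, an endothelial marker (-0.10 to 0.0879). Pcbp2 also turned with the replicate block (-0.0546), and Emcn with voom (-0.005), log2(FPKM + 1) (-0.0255) and log2(FPKM + 0.1) (-0.0266). The 304 higher and 302 lower genes became 149 and 131 with DESeq2, 177 and 174 with log2(FPKM + 1), and 159 and 161 with log2(FPKM + 0.1). With 1 library left out they ranged from 144 to 323 and from 146 to 287. Of other iron and haem genes, 1 in place of 2 was lower with plain library totals, DESeq2, both FPKM scales and the replicate block, and 1 to 2 were lower and 0 to 2 higher with 1 library left out. Same-numbered libraries did not deviate together (correlations -0.008 and 0.026). With 2 wild type libraries at this depth, whether the numbers mark pairs cannot be judged from that. The cause of the changes between alternatives was not tested. Blvrb, Cd163 and Tfrc are limited by counts under 25 per library.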
